A study of Homo sapiens with 11 samples.

Results

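The D-type cyclins, their kinase partner CDK6 and 6 inhibitors of cyclin-dependent kinases (CDKs) were followed across ARPE-19 lines that expressed reprogramming factors. The 10 genes were CCND1, CCND2, CCND3, CDK6, CDKN1B, CDKN1C, CDKN2A, CDKN2B, CDKN2C and CDKN2D. They were taken by gene symbol from a table of 60605 features, and all 10 were present and passed the filter on low values. ARPE-19 cells are a widely used established line that came from human retinal pigment epithelium (RPE). Stable lines carried an open reading frame for GFP, Oct4, Sox2, Klf4 or for Oct4, Sox2 and Klf4 together (OSK), and polyA RNA was taken after 4 days of its expression. GFP, a fluorescent protein, was the control and had 3 libraries, and each other line had 2. Every group, the control included, thus carried a delivered reading frame in the same cells. The library names of the factor lines carry the suffix mC, which those of the GFP line lack, and its meaning is not given in the sources used here. Nor are the promoter, the vector, the species of the factors, or whether a line was 1 clone. The labels do not say that libraries of a group came from separate cultures, so p-values measure the spread between these libraries, which may be technical.

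D-type cyclins bind CDK4 or CDK6, and the active kinase phosphorylates the retinoblastoma protein RB, which then releases E2F factors to switch on genes of DNA replication and mitosis. Inhibitors of the INK4 family (CDKN2A, CDKN2B, CDKN2C and CDKN2D) bind CDK4 and CDK6 and keep the D cyclins off. Inhibitors of the CIP/KIP family (CDKN1A, CDKN1B and CDKN1C) bind whole cyclin and kinase complexes, mainly those of CDK2. RPE cells of the adult eye are normally non-dividing, whereas ARPE-19 cells divide in culture until contact slows them. The question was which of these brakes differed in the lines where proliferation genes were higher.

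Values are normalised counts, the read count of a gene divided by a factor per library. Reads recovered from them ranged from 15053300 to 19791775 per library. GFP replicate 1 and OSK replicate 1 stood apart, with 42956 and 32493 features above 0 against 25853 to 26971 in the other 9 libraries, so counts of genes are also given without them. Each delivered factor was highest in the lines labelled with it. POU5F1 (Oct4) was at 252 to 276 in GFP, 67326 and 66823 in the Oct4 line and 19020.4 and 19542 in OSK. SOX2 was at 43.7 to 82.4 in GFP, 29106 and 29141 in the Sox2 line and 17764 and 17582 in OSK. KLF4 was at 45.5 to 124 in GFP and at least 22142 in the Klf4 and OSK lines. OSK had 0.29-fold the POU5F1 of the Oct4 line and 0.61-fold the SOX2 of the Sox2 line (adjusted p = 7.92e-07 and 0.008). Its KLF4 did not differ detectably from that of the Klf4 line (adjusted p = 0.907). Genes of factors that were not delivered were also called in some lines, at far lower levels: SOX2 was 3.03-fold and KLF4 3.40-fold above GFP in the Oct4 line (adjusted p = 2.6e-06 and 6.12e-05), and SOX2 2.59-fold and POU5F1 1.40-fold in the Klf4 line (adjusted p = 1.82e-05 and 0.0449). Of 19 RPE markers, 16 reached 10 normalised counts in at least 1 library, while RPE65, DCT and TTR stayed under 10 in every library. The pigmentation markers PMEL, TYRP1 and MITF fell in all 4 lines. PMEL, of the melanosome, was at 0.12-fold, 0.027-fold, 0.25-fold and 0.16-fold of GFP with Oct4, Sox2, Klf4 and OSK. The regulator MITF was at 0.56-fold, 0.23-fold, 0.71-fold and 0.49-fold (adjusted p of at most 9.76e-05 for PMEL and MITF). TYR and TRPM1 fell with Oct4, Sox2 and OSK but were not called with Klf4 (adjusted p = 0.182 and 0.201). Some other listed markers rose: RDH5 with Oct4, Klf4 and OSK (2.51-fold, 6.16-fold and 2.37-fold), and TJP1 and EZR in all 4 lines. MERTK rose with Oct4, Sox2 and OSK and fell with Klf4. The summed level of the 19 was mostly KRT8, EZR and KRT18. It ran from 47088 to 53277 in GFP and overlapped this with Klf4 (49682.5 to 54437). It lay below all GFP libraries with Oct4 (36781 to 38128), Sox2 (36908 to 40535) and OSK (36099.7 to 36805). KRT8 and KRT18 fell with Oct4 and OSK but were not called with Sox2. With Klf4 KRT8 also fell (log2 change -0.27, adjusted p = 0.00446), while KRT18 was not called (adjusted p = 0.598). No listed marker of leukocytes, endothelium or fibroblasts was at 0 in every library. PTPRC and DCN stayed under 10. The summed level of the 5 fibroblast markers was 2940 to 4867 in GFP, 7053 to 8407 in the Sox2 line, 976 to 1372 in the Klf4 line, 583 to 823 in OSK and 2547 to 3676 in the Oct4 line. Nearly all of it was COL1A1 (8369 and 7029 with Sox2, 2884 to 4845 in GFP), while COL1A2 and PDGFRA were not called with Sox2. The 5 endothelial markers summed to 1092 to 1358 in GFP and 541 to 896 in the factor lines. Nearly all of this was KDR, while VWF and PECAM1 were not called in any line and varied within GFP (VWF 73.5, 0 and 1.94, PECAM1 20.9, 0 and 0). The part of these markers in the results below was not tested. In these bulk libraries fewer cells of a state and less RNA per cell cannot be told apart.

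By GENCODE release 29 (GRCh38), CDKN2A (chr9:21967753-21995301, minus strand) and CDKN2B (chr9:22002903-22009363, minus strand) lie side by side. CDKN2C is at chr1:50960745-50974633 (plus strand) and CDKN2D at chr19:10566462-10569059 (minus strand). CDKN1B is at chr12:12715058-12722371 (plus strand) and CDKN1C at chr11:2883213-2885773 (minus strand). CCND1 is at chr11:69641087-69654474 (plus strand), CCND2 at chr12:4273772-4305350 (plus strand), CCND3 at chr6:41934933-42050357 (minus strand) and CDK6 at chr7:92604921-92836594 (minus strand). All are protein-coding. CDKN2A makes p16INK4a and the unrelated p14ARF from shared exons, and counts per gene do not separate them.

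The INK4 members with the greatest rise and fall are shown by sequence from before a RefSeq start (GRCh38.p14). Capitals mark the GC box GGGCGG, which Sp and KLF proteins can bind, and the KLF-type word GGGCGTGG, on either strand, where the words may overlap. The CDKN2B stretch covers 192 bases at chr9:22009364-22009555 (minus strand, read 5′ to 3′) before the first GENCODE exon and holds 2 GC boxes. The CDKN2C stretch is 24 bases at chr1:50968639-50968662 (plus strand), chosen because it holds the KLF-type word. It lies before an inner start of the gene and holds 3 GC boxes and 1 KLF-type word. Of the 3 windows of CDKN2C, that before the first start (chr1:50960495-50960744) held neither word, and the third held 1 GC box.
CDKN2B: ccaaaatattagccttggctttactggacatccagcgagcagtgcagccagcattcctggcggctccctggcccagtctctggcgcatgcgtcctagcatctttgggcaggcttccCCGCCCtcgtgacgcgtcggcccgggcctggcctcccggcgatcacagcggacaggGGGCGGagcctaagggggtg
CDKN2C: GGGCGGaGGGCGGGGCGTGGGCGG
Windows of 250 bases before a RefSeq start were found for 7 of the 10 genes, 13 windows in all, and not for CCND1, CCND2 and CDKN1C. A GC box was in 9 of the 13, against 42.6% of all 35116 windows. A KLF-type word (GGGTGTGG or GGGCGTGG) was in 2, of CDKN2C and CDKN2D, against 7.46% of all windows. No window held an E2F word (TTTCCCGC, TTTGGCGC, TTTCGCGC or TTTGCCGC), present in 2.79% of all windows, the SOX word CATTGTT (2.87%) or the octamer ATTTGCAT (1.63%). For comparison, 13 of 50 genes of the proliferation list (26.0%) held an E2F word in at least 1 window, against 0 of the 7 genes here. This share counts genes, which can have several windows, and is not in the unit of the shares of windows. For the E2F word, 0 of 13 windows is near the share of all windows, so its absence does not set the 7 genes apart. A match is a run of letters, not a site shown to be bound.

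Proliferation was read from 59 genes of DNA replication and mitosis, none of them among the 10. In the Klf4 line 53 of the 59 rose and none fell (median log2 change from GFP 1.88), and in OSK 53 rose and none fell (1.95). In the Sox2 line 45 rose and 1 fell (1.11). In the Oct4 line 13 rose and 9 fell (0.14). Called in either direction were 37.3% of the list with Oct4, the same share as of all genes tested (37.3%), against 78% with Sox2 (all genes 41.6%), 89.8% with Klf4 (33.5%) and 89.8% with OSK (39.7%). The median over all 18828 genes tested was between -0.02 and -0.01 in these comparisons. MKI67, which encodes the proliferation antigen Ki-67, had 189.7, 251 and 213 normalised counts in GFP, 258 and 291 in the Oct4 line, 878.5 and 945 in the Sox2 line, 2077 and 2721 in the Klf4 line and 2167 and 1964 in OSK. Every factor line lay above every GFP library, with the Klf4 and OSK lines highest. MKI67 did not differ detectably between OSK and Klf4 (log2 difference -0.20, 95% confidence interval -0.49 to 0.08, adjusted p = 0.337). Without GFP replicate 1 and OSK replicate 1 the numbers that rose were 12, 48, 55 and 52 for Oct4, Sox2, Klf4 and OSK.

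At an adjusted p under 0.05 (limma, over all genes tested), 5 of the 10 genes differed from GFP in the Oct4 line, 4 up and 1 down. Of all genes tested 37.3% were called with Oct4, 20.1% up and 17.2% down. In the Sox2 line 9 of the 10 differed, with 6 up and 3 down, against 41.6% of all genes (21.7% up, 19.9% down). In the Klf4 line 6 differed, with 4 up and 2 down, against 33.5% (17.6% up, 16% down). In OSK 6 differed, with 3 up and 3 down, against 39.7% (19.7% up, 20% down). The count in the Oct4 line was near its background, and that in the Sox2 line was the furthest above it. Without GFP replicate 1 and OSK replicate 1 the counts were 4, 8, 6 and 6. The genes called also changed. Without GFP replicate 1 alone, the Klf4 calls were 5 up and 1 down, as CCND2 lost its call and CDKN2D gained one. With Oct4, CDK6 and CDKN1C then lost their calls and CDKN2B gained one as a fall. The median log2 change of the 10 genes was 0.27 with Oct4, 0.67 with Sox2, 0.39 with Klf4 and -0.26 with OSK. The 4 comparisons share the GFP libraries, so their values stand side by side and are not independent. A change found in all 4 lines cannot be told apart from a difference particular to the GFP line. The plot of log2 changes from GFP shows each gene with its interval.

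**Figure D1:**
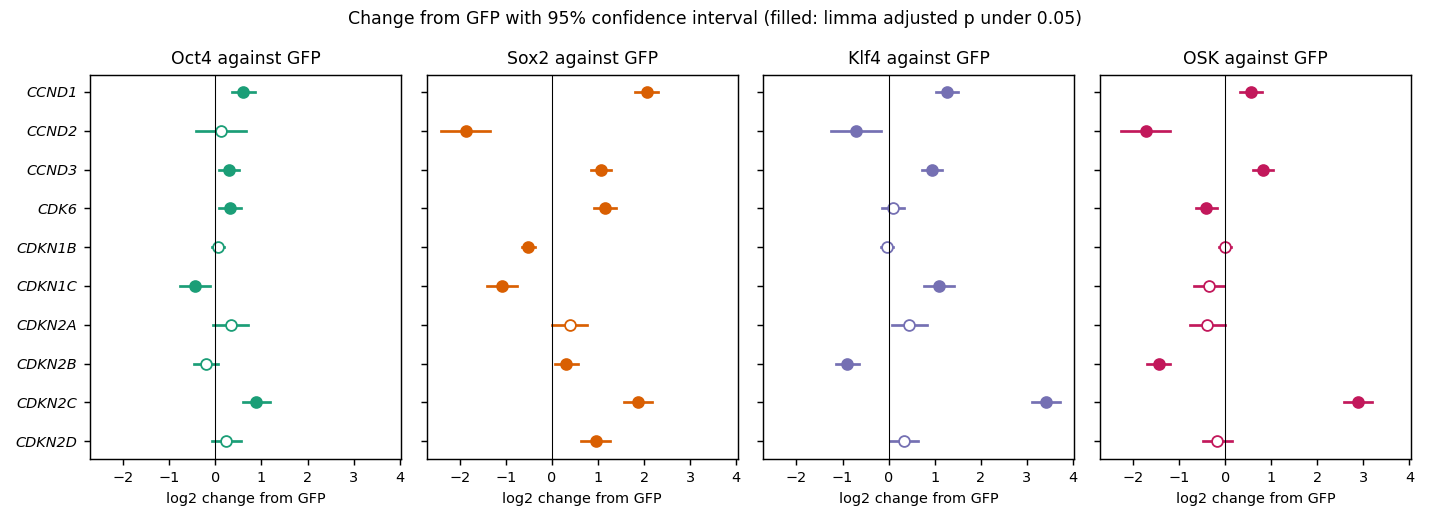
Log2 change from GFP (horizontal axis) of each gene (rows) in the Oct4, Sox2, Klf4 and OSK lines, with bars for the 95% confidence interval of the limma fit and filled points for adjusted p under 0.05. CDKN2C lies to the right of 0 in all 4 panels, while CDKN2B lies to the left in the Klf4 (-0.90) and OSK (-1.45) panels.

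CCND1 and CCND3 rose in all 4 lines, and CCND2 fell in the Sox2, Klf4 and OSK lines. CCND1 encodes cyclin D1, the D cyclin that growth factor signals raise in most epithelial cells. CCND1 had 4018, 5737 and 5409 normalised counts in GFP, 8154 and 7122 in the Oct4 line, 21192 and 20243 in the Sox2 line, 12567 and 11466 in the Klf4 line and 7343 and 7369 in OSK. No factor library overlapped GFP, and the Sox2 line was highest. The log2 changes from GFP were 0.61 (SE 0.12, adjusted p = 0.000583) with Oct4, 2.05 (SE 0.12, adjusted p = 9.2e-10) with Sox2, 1.26 (SE 0.12, adjusted p = 4.41e-07) with Klf4 and 0.56 (SE 0.12, adjusted p = 0.00105) with OSK. The order of the lines by CCND1 was thus not that by MKI67. CCND1 was lower in OSK than in the Sox2 line by 1.49 (log2 difference -1.49, SE 0.13, adjusted p = 1.12e-07), where MKI67 was higher in OSK by 1.18 (SE 0.13, adjusted p = 3.37e-06).

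CCND3, which encodes cyclin D3, had 464, 444 and 411 in GFP, 555 and 526 in the Oct4 line, 996 and 852 in the Sox2 line, 751 and 939 in the Klf4 line and 767 and 785 in OSK. The Sox2, Klf4 and OSK libraries formed a range from 751 to 996, above all GFP and Oct4 libraries. The log2 changes were 1.07 (Sox2), 0.93 (Klf4) and 0.82 (OSK), each with an SE of 0.10 and adjusted p of at most 8.02e-06. CCND3 did not differ detectably between OSK and Sox2 (-0.25, interval -0.48 to -0.01, adjusted p = 0.0919) or between OSK and Klf4 (-0.11, interval -0.35 to 0.12, adjusted p = 0.546). The smaller rise with Oct4 (0.30, SE 0.10, adjusted p = 0.0298) lost its call under 7 of 21 alternatives. It was 0.31 without GFP replicate 2 (adjusted p = 0.051), 0.25 without GFP replicate 3 (adjusted p = 0.0994), 0.26 without Oct4 replicate 1 (adjusted p = 0.166) and 0.34 without Oct4 replicate 2 (adjusted p = 0.0754).

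CCND2, which encodes cyclin D2, was the least abundant of the 3 and rested on 14 to 75 reads per library. It had 74.5, 65.8 and 62.2 normalised counts in GFP, 70.8 and 75.5 in the Oct4 line, 15.7 and 19.7 in the Sox2 line, 41.6 and 39.99 in the Klf4 line and 18.4 and 20.9 in OSK. The Oct4 libraries overlapped GFP, and the other lines lay below. CCND2 fell by 1.88 on the log2 scale with Sox2 (SE 0.25, adjusted p = 1.73e-05) and by 1.73 with OSK (SE 0.25, adjusted p = 4.54e-05). Direct comparison placed it lower in the Sox2 line than in the Oct4 line (0.24-fold, adjusted p = 3.43e-05). The fall with Klf4 (-0.71, SE 0.25, adjusted p = 0.0419) lost its call under 11 of 21 alternatives. Leaving out any GFP, Oct4 or Klf4 library ended it (log2 change -0.76 to -0.64 over all alternatives, adjusted p up to 0.152).

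**Figure D2:**
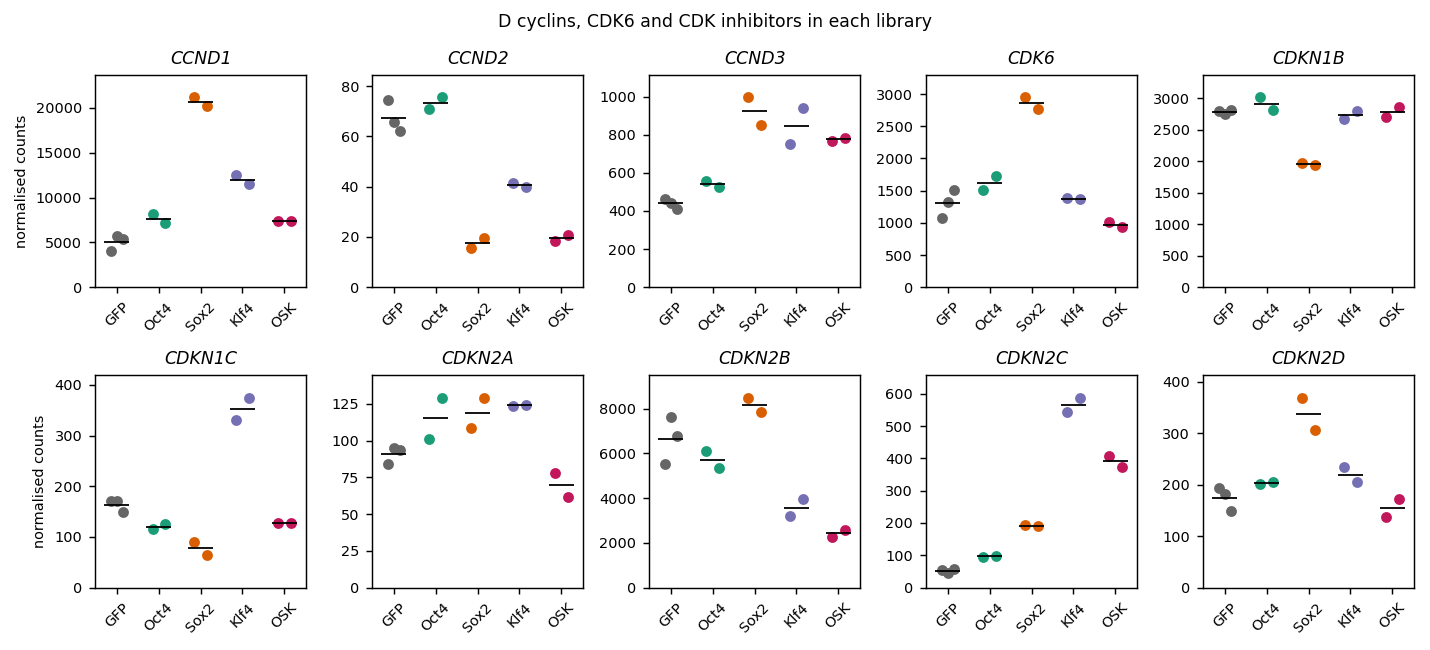
Normalised counts (vertical axis, from 0) of each gene in each library, by line; points are libraries and bars are group means. The Sox2 points are highest for CCND1 (20243 and 21192) and CDK6, and the Klf4 points are highest for CDKN2C (542 and 588) and CDKN1C.

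CDK6, a catalytic partner of the D cyclins, rose in the Sox2 line and fell in OSK. It had 1069.5, 1322 and 1517 normalised counts in GFP, 1503 and 1728 in the Oct4 line, 2949.6 and 2768 in the Sox2 line, 1389 and 1364 in the Klf4 line and 1007 and 939 in OSK. The Sox2 libraries lay above all others and the OSK libraries below all others. The log2 change was 1.15 with Sox2 (SE 0.11, adjusted p = 4.7e-07) and -0.41 with OSK (SE 0.11, adjusted p = 0.00798), and OSK was below the Sox2 line by 1.55 (log2 difference -1.55, SE 0.12, adjusted p = 4.52e-08). The OSK call was lost without OSK replicate 2 (-0.36, adjusted p = 0.0847). With Klf4 the change was 0.09 (interval -0.14 to 0.33, adjusted p = 0.564), and it was -0.04 without GFP replicate 1. With Oct4 CDK6 changed by 0.32 (SE 0.11, adjusted p = 0.0326), but its libraries overlapped GFP. That call was lost without GFP replicate 1 (0.19, adjusted p = 0.0838) and without Oct4 replicate 2 (0.22, adjusted p = 0.283).

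CDK4, the other D cyclin kinase, is not among the 10 and moved differently. It had 1228, 1439.6 and 1503 normalised counts in GFP and between 651 and 855 in the 8 factor libraries, which did not overlap GFP. Its log2 change was -0.75 with Oct4, -1.01 with Sox2, -0.86 with Klf4 and -0.82 with OSK (SE 0.09 each, adjusted p of at most 5.89e-06). In the Sox2 line CDK6 was thus higher and CDK4 lower than in GFP.

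CDKN2C rose in all 4 lines. It encodes p18INK4c and is known to rise as cells pass from G1 into S phase. It had 55.6, 43.5 and 57.35 normalised counts in GFP, 95.2 and 98.4 in the Oct4 line, 194 and 190.1 in the Sox2 line, 542 and 588 in the Klf4 line and 409 and 373 in OSK. The 5 groups did not overlap. The change from GFP was 1.86-fold with Oct4 (log2 0.89, SE 0.14, adjusted p = 0.00012), 3.68-fold with Sox2 (1.87, SE 0.14, adjusted p = 2.92e-08), 10.8-fold with Klf4 (3.42, SE 0.14, adjusted p = 7.48e-11) and 7.49-fold with OSK (2.89, SE 0.14, adjusted p = 3.19e-10). By size of log2 change CDKN2C ranked 119 of 18828 genes with Klf4 and 244 with OSK. Each step in the order Oct4, Sox2, OSK and Klf4 passed the test of the difference: Sox2 exceeded Oct4 by 0.98 (SE 0.16, adjusted p = 0.000125), OSK exceeded Sox2 by 1.02 (SE 0.16, adjusted p = 6.58e-05), and OSK was below Klf4 (-0.53, SE 0.16, adjusted p = 0.0221). The last of these was lost when any Klf4 or OSK library was left out (-0.60 to -0.47, adjusted p 0.0628 to 0.161). The median of the proliferation list was 0.14 in Oct4, 1.11 in Sox2, 1.88 in Klf4 and 1.95 in OSK. Klf4 and OSK were close together in this median, and their order was not stable. Without GFP replicate 1 the medians were 2.09 with Klf4 and 2.07 with OSK. Set directly against Klf4, OSK had a median log2 difference of -0.06 over the list.

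CDKN2B fell in the Klf4 and OSK lines. It encodes p15INK4b, an INK4 inhibitor that transforming growth factor beta is known to induce. CDKN2B had 5528, 7639 and 6791 normalised counts in GFP, 6102 and 5339 in the Oct4 line, 8501 and 7865 in the Sox2 line, 3179.6 and 3941 in the Klf4 line and 2258 and 2590.3 in OSK. The Klf4 and OSK libraries lay below all others and the Sox2 libraries above all others. The change was 0.54-fold with Klf4 (log2 -0.90, SE 0.12, adjusted p = 2.48e-05) and 0.36-fold with OSK (-1.45, SE 0.12, adjusted p = 9.23e-08). The Klf4 line was below the Sox2 line by 1.21 (log2 difference -1.21, SE 0.13, adjusted p = 1.64e-06) and OSK below it by 1.76 (log2 difference -1.76, SE 0.13, adjusted p = 2.68e-08), although proliferation genes rose in all of these lines. In the Sox2 line CDKN2B was marginally above GFP (0.31, SE 0.12, adjusted p = 0.0491), and 16 of 21 alternatives lost that call. Without GFP replicate 1 it was 0.18 (adjusted p = 0.136), and without Sox2 replicate 1 or 2 it was 0.25 or 0.37 (adjusted p = 0.255 and 0.0921). It was also lost without GFP replicate 3 (0.33, adjusted p = 0.0708) and, by adjusted p alone, without any Oct4 or OSK library (0.31, adjusted p 0.0558 to 0.0577). In the Oct4 line the change was -0.21 (interval -0.46 to 0.05, adjusted p = 0.195), and without GFP replicate 1 it passed (-0.34, adjusted p = 0.00922).

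CDKN2D, which encodes p19INK4d, rose in the Sox2 line. It had 193, 181 and 149 normalised counts in GFP, 201 and 206 in the Oct4 line, 369 and 307 in the Sox2 line, 234 and 205 in the Klf4 line and 137 and 173 in OSK. The Sox2 libraries lay above all others. The log2 change with Sox2 was 0.95 (SE 0.15, adjusted p = 7.01e-05), and the Sox2 line exceeded Oct4 by 0.72 (SE 0.16, adjusted p = 0.00244) and OSK by 1.13 (OSK minus Sox2 -1.13, SE 0.16, adjusted p = 3.59e-05). The change was 0.33 with Klf4 (interval 0.02 to 0.65, adjusted p = 0.0968) and -0.17 with OSK (interval -0.49 to 0.14, adjusted p = 0.398). Without GFP replicate 1 the Klf4 change passed (0.41, adjusted p = 0.0497).

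CDKN2A did not pass the test against GFP in any line. It had 84.4, 95.1 and 93.3 normalised counts in GFP, 101 and 129 in the Oct4 line, 109 and 129 in the Sox2 line, 124 and 125 in the Klf4 line and 78.05 and 61.6 in OSK, from 56 to 151 reads. The single-factor libraries all lay above GFP and the OSK libraries below it. The log2 changes were 0.33 (Oct4), 0.38 (Sox2), 0.45 (Klf4) and -0.38 (OSK), each with an SE of 0.18 and adjusted p from 0.0675 to 0.17. Directly compared, OSK was lower than Oct4 (-0.71, adjusted p = 0.00814), Sox2 (-0.77, adjusted p = 0.00512) and Klf4 (-0.83, adjusted p = 0.00568), each with an SE of 0.20. Without OSK replicate 2 these were -0.54 (adjusted p = 0.0907), -0.60 (adjusted p = 0.0642) and -0.66 (adjusted p = 0.0783), and the first was also lost without Oct4 replicate 2 (-0.54, adjusted p = 0.0971) and the second without Sox2 replicate 2 (-0.64, adjusted p = 0.0585).

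Of the genes around CDKN2A and CDKN2B, MTAP, next to CDKN2A, had 823 to 863 normalised counts in GFP and changed in the Oct4 line (-0.45, SE 0.07, adjusted p = 9.51e-05), with no call in the lines where CDKN2B fell (Klf4 0.00, interval -0.15 to 0.15; OSK 0.07, interval -0.08 to 0.22). The antisense gene CDKN2B-AS1 had 34.1 to 61.7 normalised counts over all libraries and passed in no line. Counting that ignores strand cannot separate it from CDKN2B where they overlap. DMRTA1 rose in the Sox2 line (0.94, SE 0.15, adjusted p = 0.000102). CDKN2A-DT had at most 3 reads in any library.

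CDKN1B, which encodes p27Kip1, fell in the Sox2 line. It had 2801, 2756 and 2816 normalised counts in GFP, 3017 and 2812 in the Oct4 line, 1976 and 1939 in the Sox2 line, 2667 and 2801 in the Klf4 line and 2708 and 2856 in OSK. The Sox2 libraries lay below all others, and the other lines overlapped GFP. The log2 change with Sox2 was -0.51 (SE 0.06, adjusted p = 5.77e-06). The Sox2 line was also below Oct4 (-0.57, SE 0.07, adjusted p = 6.66e-06), while Klf4 and OSK exceeded it by 0.48 and 0.51 (SE 0.07 each, adjusted p = 2.88e-05 and 1.82e-05). With Klf4 and OSK the intervals of the change from GFP were -0.16 to 0.10 and -0.14 to 0.13, and the sign of these small values varied with the setting. The protein is known to be controlled largely by degradation, which RNA does not show.

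CDKN1C differed in direction between lines. It encodes p57Kip2 and is an imprinted gene. It had 171, 171 and 149.7 normalised counts in GFP, 115 and 125 in the Oct4 line, 89.8 and 65.1 in the Sox2 line, 329.6 and 375 in the Klf4 line and 128 in both OSK libraries. The Klf4 libraries lay above GFP and the other lines below it. The change was 2.15-fold with Klf4 (log2 1.10, SE 0.16, adjusted p = 4.35e-05) and 0.47-fold with Sox2 (-1.09, SE 0.16, adjusted p = 3.1e-05), and Klf4 exceeded Sox2 by 2.19 (SE 0.17, adjusted p = 3.46e-08). With OSK it was -0.35 (interval -0.68 to -0.02, adjusted p = 0.0843), so OSK and Klf4, whose proliferation genes were alike in median, differed by -1.45 in CDKN1C (SE 0.17, adjusted p = 1.08e-05). The fall with Oct4 (-0.45, SE 0.16, adjusted p = 0.0335) lost its call under 7 of 21 alternatives. It was -0.41 without GFP replicate 1 or 2 (adjusted p = 0.0697 and 0.0858) and -0.39 and -0.50 without Oct4 replicate 1 and 2 (adjusted p = 0.171 and 0.0766).

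Of 5 genes next to CDKN1C, PHLDA2, an imprinted gene of the same domain, also rose in the Klf4 line. PHLDA2 had 61.6, 19.2 and 46.7 normalised counts in GFP, 65.0 and 35.5 with Oct4, 325 and 388 in the Klf4 line, 90.9 and 86.5 in the Sox2 line and 80.2 and 69.3 in OSK. Its log2 change with Klf4 was 3.18 (SE 0.36, adjusted p = 4.83e-06), and it rose by 1.19 in the Sox2 line (adjusted p = 0.0146), where CDKN1C fell. With OSK it rose by 0.95 (adjusted p = 0.0494). The noncoding KCNQ1OT1 was called in the Oct4 line (0.50, SE 0.16, adjusted p = 0.0215) and in no other. SLC22A18 rose with Oct4 (1.26, SE 0.27, adjusted p = 0.00172) and fell with OSK (-0.79, SE 0.27, adjusted p = 0.0296). NAP1L4 rose with OSK (0.33, SE 0.07, adjusted p = 0.00089), and KCNQ1, with at most 15 reads, passed in no line.

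**Figure D3:**
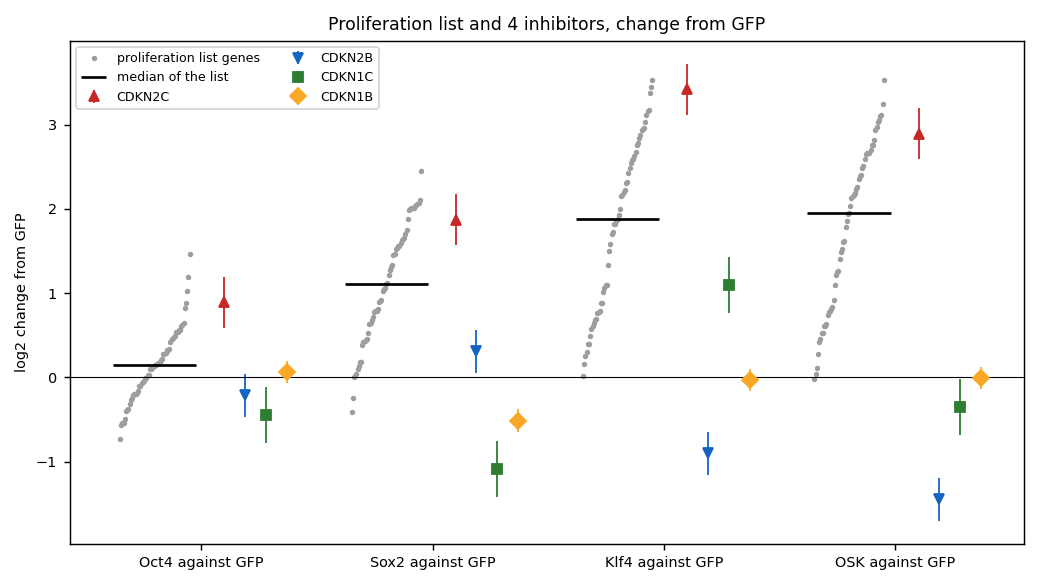
Log2 change from GFP (vertical axis) of the 59 proliferation genes (grey points, black bar at the median) and of CDKN2C, CDKN2B, CDKN1C and CDKN1B (coloured marks, bars for the 95% confidence interval) in each line. CDKN2C lies above the median of the list in every line (3.42 against 1.88 with Klf4), while CDKN2B lies below 0 with Klf4 and OSK and above 0 with Sox2.

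The lines with higher proliferation genes thus differed in which brakes were lower. In the Sox2 line CDKN1B and CDKN1C fell while CDKN2C, CDKN2D and, marginally, CDKN2B rose. In the Klf4 line CDKN2B fell while CDKN2C and CDKN1C rose. In OSK CDKN2B fell and CDKN2C rose, and CDKN1A, outside the 6, also fell. No inhibitor among the 6 fell in all of these 3 lines, and CDKN2C rose in each. Of the 6, 83.3%, 50% and 33.3% were called with Sox2, Klf4 and OSK, against 41.6%, 33.5% and 39.7% of all genes. Only 16% to 20% of all genes fell in each line, so the lack of a shared fall does not set the 6 apart. CDKN2C also rose in the Oct4 line, where the proliferation list was called at the share of all genes. CDKN1C fell there, by a call that some alternatives lost.

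Levels of different genes were compared per kilobase of GENCODE exon, which depends on the isoforms in use. In GFP the most abundant of the 10 were CDKN2B (1639 ± 262 normalised counts per kilobase, SD, n = 3), CCND1 (1046 ± 189) and CDKN1B (993 ± 11.2), and the ranges of CCND1 and CDKN1B overlapped. CCND2 was the lowest in every line (9.43 ± 0.88 in GFP). CDKN2C was the ninth in GFP (15.7 ± 2.27) and the fourth in the Klf4 line (170.4 ± 9.80, n = 2). CCND1 made up 91.7% to 96.6% of the D cyclin sum per kilobase in the factor lines and 90.2% to 93.4% in GFP. CDKN2B made up 91.3% ± 1.82 of the INK4 sum in GFP (n = 3), 88.0% ± 1.42 with Oct4, 86.7% ± 0.37 with Sox2, 71.6% ± 3.30 with Klf4 and 71.6% ± 1.40 with OSK (n = 2 for each). CDKN2C made up 0.90% ± 0.23 of it in GFP and 14.0% ± 0.67 and 14.2% ± 2.01 in the Klf4 and OSK lines. The sum of the 6 inhibitors per kilobase ran from 2592 to 3087 in GFP, 2563 to 2809 in the Oct4 line, 2946 to 3163 in the Sox2 line, 2213 to 2461 in the Klf4 line and 1803 to 1947 in OSK. The Klf4 and OSK libraries lay below all GFP libraries, whereas the Oct4 and Sox2 libraries overlapped them. CDKN2B and CDKN1B gave most of each sum, so these sums mainly follow them.

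**Figure D4:**
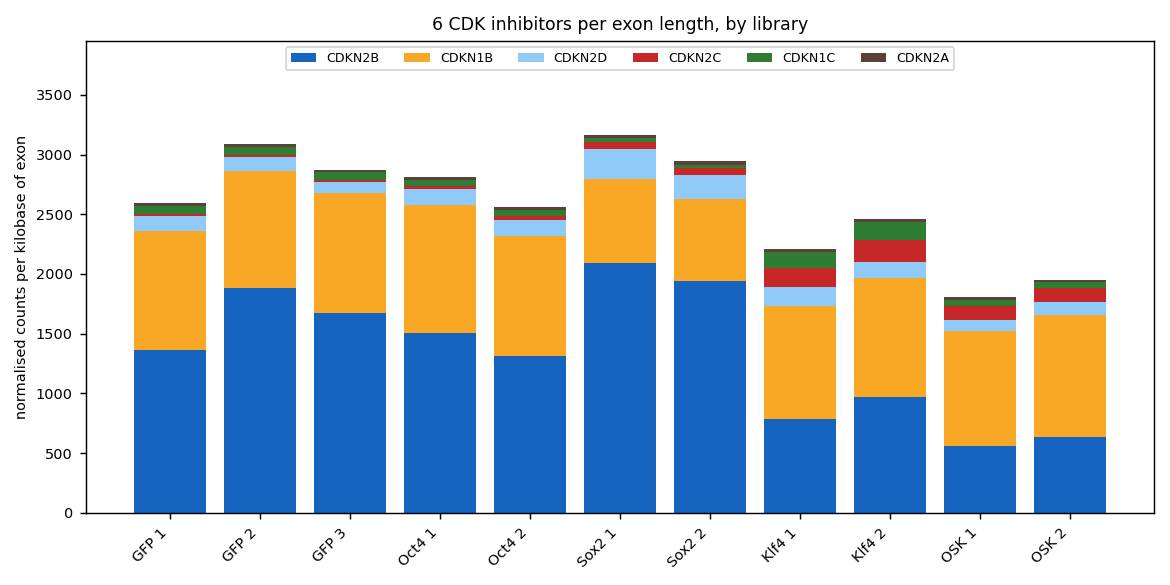
Normalised counts per kilobase of exon (vertical axis, from 0) of the 6 inhibitors, stacked, in each library. The bars of the Klf4 line (2213 and 2461) and OSK (1803 and 1947) are shorter than those of GFP, mainly in the CDKN2B part, and hold a larger CDKN2C part.

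OSK was next set against each single factor. POU5F1 and SOX2 were lower in OSK than in the Oct4 and Sox2 lines, so comparisons with these lines do not isolate the added factors. Against the Klf4 line, which it resembled in proliferation genes (2 of 59 higher, 3 lower), 8 of the 10 genes were lower in OSK and none was higher, against 21.5% of all genes called in either direction and 11.9% lower (9.56% higher). CCND1 (-0.71, SE 0.13, adjusted p = 0.000671) and CDKN1C (-1.45, given above) were among them and passed under all 21 alternatives. The others were CCND2 (-1.02), CDK6 (-0.50), CDKN2A (-0.83), CDKN2B (-0.55), CDKN2C (-0.53) and CDKN2D (-0.51), each of which lost its call under at least 1 alternative. CDKN2B was lost without Klf4 replicate 2 (-0.39, adjusted p = 0.0967) and without OSK replicate 1 (-0.45, adjusted p = 0.0827). CDKN2A was lost without OSK replicate 2 (-0.66, adjusted p = 0.0783). CDK6 was lost without Klf4 replicate 1 (-0.49, adjusted p = 0.0522) and without OSK replicate 2 (-0.45, adjusted p = 0.0742). CCND2 was lost without either Klf4 library (-0.99 and -1.05, adjusted p = 0.0779 and 0.0524) or OSK replicate 1 (-0.93, adjusted p = 0.083). CDKN2D was lost without either Klf4 library (-0.41 and -0.60, adjusted p = 0.225 and 0.0527) or OSK replicate 1 (-0.34, adjusted p = 0.282). Leaving out Klf4 replicate 1, Klf4 replicate 2 or OSK replicate 1 left 4 of the 8 calls, and leaving out OSK replicate 2 left 5.

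Against Sox2, 8 of the 10 genes differed, 3 of them higher in OSK and 5 lower, where 40.5% of all genes were called (20% higher, 20.5% lower). CDKN1B, CDKN1C and CDKN2C were higher in OSK, and CCND1, CDK6, CDKN2A, CDKN2B and CDKN2D were lower. Against Oct4, 6 differed, 2 higher and 4 lower, where 40.3% of all genes were called (18.4% higher, 21.9% lower). CCND3 and CDKN2C were higher, and CCND2, CDK6, CDKN2A and CDKN2B lower. CCND1, higher than GFP in OSK and in the Oct4 line, did not differ detectably between them (-0.05, interval -0.32 to 0.22, adjusted p = 0.789).

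The single factors were also compared with each other. Between Sox2 and Oct4, 9 genes differed, 6 higher and 3 lower with Sox2, against 33.4% of all genes (15.4% higher, 18% lower). Between Klf4 and Oct4, 6 differed, 4 higher and 2 lower with Klf4, against 41.7% (20% higher, 21.8% lower). Between Klf4 and Sox2, 8 differed, 4 higher and 4 lower with Klf4, against 40.8% (20.7% higher, 20.1% lower). CDKN1C, lower with Sox2 than with Oct4 (-0.64, adjusted p = 0.00797), lost that call without Oct4 replicate 2 (-0.58, adjusted p = 0.0596) and without Sox2 replicate 2 (-0.41, adjusted p = 0.12). CDKN2B, higher with Sox2 than with Oct4 (0.52, adjusted p = 0.00588), lost it without Oct4 replicate 2 (0.42, adjusted p = 0.0796) and without Sox2 replicate 1 (0.46, adjusted p = 0.0584). CCND2, lower with Klf4 than with Oct4 (-0.83, adjusted p = 0.0253), lost it without any Oct4 or Klf4 library (-0.87 to -0.78, adjusted p 0.0736 to 0.109). CDKN2D, lower with Klf4 than with Sox2 (-0.62, adjusted p = 0.00571), lost it without Sox2 replicate 1 (-0.49, adjusted p = 0.081) and without Klf4 replicate 2 (-0.52, adjusted p = 0.0565).

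**Figure D5:**
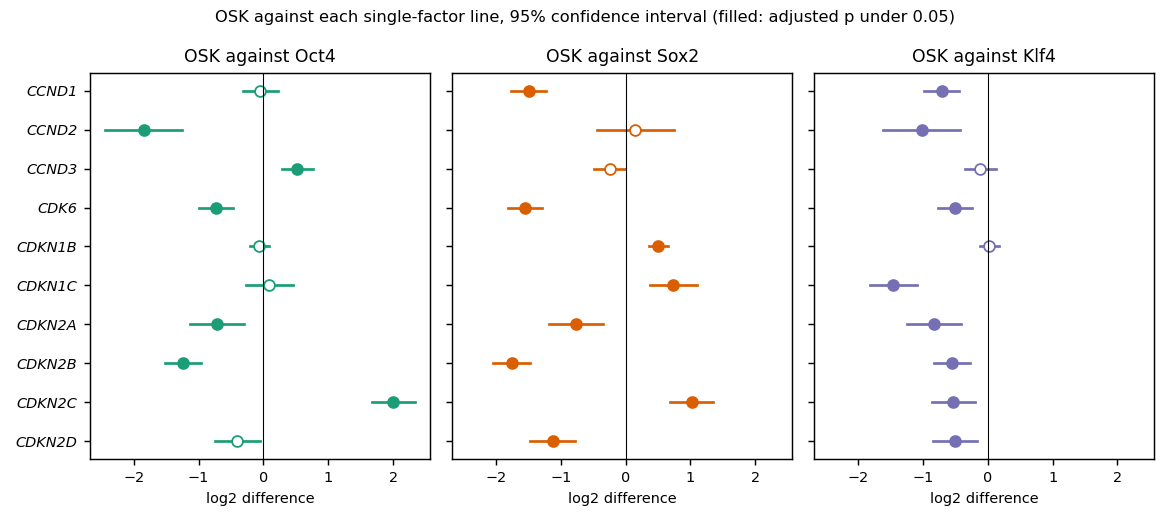
Log2 difference of OSK from the Oct4, Sox2 and Klf4 lines (horizontal axis) for each gene (rows), with bars for the 95% confidence interval and filled points for adjusted p under 0.05. In the panel against Klf4, 8 genes lie to the left of 0 with filled points, and CDKN1B (0.03) lies at 0.

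The rest of the RB and E2F pathway was examined with 42 further genes. In the Klf4 line 20 rose and 7 fell (median 0.46), in OSK 20 rose and 6 fell (0.32), in the Sox2 line 21 rose and 5 fell (0.35) and in the Oct4 line 11 rose and 8 fell (0.03). Called in either direction were 64.3%, 61.9%, 61.9% and 45.2% of the list with Klf4, OSK, Sox2 and Oct4, and 33.5%, 39.7%, 41.6% and 37.3% of all genes, so that the share with Oct4 was near its background. E2F1, an activator of S phase genes, had the largest rise of the list with Sox2 (2.36), Klf4 (3.64) and OSK (3.51; SE 0.14 each), from 70.5 ± 6.36 normalised counts in GFP (n = 3) to 892 ± 154 in the Klf4 line (n = 2). With Oct4 it rose by 0.51. CDK1, the mitotic kinase, rose with Sox2 (1.94), Klf4 (3.00) and OSK (2.71, SE 0.19 each). The mitotic regulator FOXM1 rose with Sox2 (1.67), Klf4 (2.87) and OSK (2.86), and by 0.40 with Oct4 (SE 0.15 each, adjusted p = 0.0488 with Oct4). E2F2 rose with Sox2 (1.76), Klf4 (2.84) and OSK (2.85, SE 0.56 each). It was at 34.8 in GFP replicate 1 against 16.2 and 3.89 in the other GFP libraries. With Oct4 the largest rises were CCNA2, or cyclin A2 (1.11, SE 0.16), and the LIN9 (1.07, SE 0.18) and LIN52 (1.02, SE 0.13) subunits of the MuvB complex. CCNA2 also rose with Sox2 (0.90), Klf4 (1.66) and OSK (1.92), and LIN52 with Sox2 (0.44) and OSK (0.58). E2F6, a repressor of the E2F family, fell in all 4 lines (-0.70 to -0.46, SE 0.10), as did CDK4. MYC fell with Sox2 (-1.25), Oct4 (-0.49) and OSK (-0.23, SE 0.08 each, adjusted p = 0.0394 with OSK). CCNE1, or cyclin E1, was among the 3 largest falls with Klf4 (-0.69, SE 0.19). E2F8 was at 0 in both Oct4 libraries and at 3.89 to 13.9 in GFP. Apart from FOXM1 with Oct4 and MYC with OSK, all these changes had adjusted p of at most 0.0183.

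CDKN1A, the CIP/KIP inhibitor p21 that p53 induces, had 4018, 5862 and 5822 normalised counts in GFP and fell with OSK to 3518 and 3294 (log2 -0.60, SE 0.12, adjusted p = 0.000841). With Klf4 its change was -0.30 (interval -0.56 to -0.05, adjusted p = 0.0656), and with Oct4 and Sox2 it was -0.05 and 0.01. CDK2 rose with Klf4 (0.47, SE 0.10, adjusted p = 0.00128) and fell with Oct4 (-0.26, SE 0.10, adjusted p = 0.0408). RB1 rose with Oct4 (0.37, SE 0.08, adjusted p = 0.00176) and Sox2 (0.54, SE 0.08, adjusted p = 4.64e-05).

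Among 11058 genes with a mean of at least 100 normalised counts, the gene most like each changed member over the 11 libraries was found by Pearson correlation of log2 values. These points share libraries and groups, and the values are a description. They were B3GALT6 for CDKN2B (r = 0.991), IQGAP3 for CDKN2C (0.987), DKK3 for CCND1 (0.984), SEMA4F for CDK6 (0.983), DAB2 for CCND2 (0.983), SLC16A3 for CDKN1C (0.974), PHF19 for CCND3 (0.971), SRSF5 for CDKN1B (0.960) and CNEP1R1 for CDKN2D (0.954).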

How the data were processed

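PolyA RNA of 11 ARPE-19 libraries was sequenced, and groups came from the sample titles. The submitters' processing notes name STAR 2.7.1a, featureCounts 1.6.2 and the builds GRCh38/hg38 and GRCm38/mm10, without roles. Strand use and annotation are not given in the sources used here. The deposited values are a signal in normalised counts: gene counts divided by a factor per library and rounded to 2 decimals, as their values show. Each value up to 200 was, within 0.0061, a whole number of steps of 1 read, so reads could be recovered. For GFP replicates 1 and 2 that step is so near 1 (0.993 and 1.01) that recovery is less certain.

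The main test was limma 3.58.1 (R 4.3.3; lmFit, eBayes with trend) on log2(value + 1), which understates changes of low genes. The 11 libraries were fitted together, each group having its own mean (6 residual and 9.21 prior degrees of freedom). Genes reaching 10 normalised counts in 2 or more libraries were kept (18828), and Benjamini-Hochberg adjustment ran over all of them. Intervals are 95% limits of that fit. The procedure was tested on simulated data. Alternatives were edgeR 4.0.16 (TMM or median-of-ratios factors) and DESeq2 1.42.0 on recovered reads, TMM rescaling, pseudocounts of 0.5 and 5, no filter, the compared groups alone, a replicate block and leaving out libraries. A line left with 1 library was assumed to vary like the others.

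The members and gene lists were chosen with earlier results of these data known. Named genes were all members, the factors, CDK4, CDK2, CDKN1A, RB1, MKI67, listed neighbours, and per comparison with GFP the 3 largest rises and falls of the pathway list with adjusted p under 0.05 and no overlap. A gene so named in 1 line is given in each line where it passed, or as a count of lines. Promoter windows came from RefSeq (GRCh38.p14), positions and exon lengths from GENCODE 29. A further marker list is not reported here.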

Additional observations from a re-analysis of the deposited data

How the results depend on the processing

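Of 100 pairs of gene and comparison, 71 were called, and 53 of these calls held under all 21 alternatives. The other 18 lost the threshold in some, and no call changed sign. Of 26 calls against GFP, 20 held throughout. For Oct4 against GFP, with 5 members called, DESeq2 gave 3 and no filter gave 2, and leaving out 1 library gave 2 to 5. For OSK against Klf4, with 8 called, leaving out 1 library gave 4 to 8, and all genes called went from 4049 to between 2539 and 4918. Fits without a library have fewer samples, and other causes were not tested. Signs changed only for values that were not called. CDKN1B in OSK against GFP became 0.0057 (edgeR with TMM), 0.0056 (TMM rescaling), 0.0014 (replicate block), 0.0361 without GFP replicate 1 and OSK replicate 1, and ran from -0.0436 without OSK replicate 2 to 0.0335 without OSK replicate 1. CDKN2D in OSK against GFP became 0.0730 without GFP replicate 1 and OSK replicate 1, and CDK6 in Klf4 against GFP -0.0411 without GFP replicate 1, alone or with OSK replicate 1. With 1 library left out, CDKN1B in Klf4 against GFP ran from -0.0654 to 0.0050, CDK6 in Klf4 against GFP from -0.0411 to 0.2110, CCND1 in OSK against Oct4 from -0.1485 to 0.0466, CCND2 in OSK against Sox2 from -0.0043 to 0.3039, CCND3 in OSK against Klf4 from -0.2744 to 0.0485, CDKN1B in OSK against Klf4 from -0.0133 to 0.0637, CDKN2A in Sox2 against Oct4 from -0.1237 to 0.2296, CDKN2A in Klf4 against Oct4 from -0.0585 to 0.2949, CCND3 in Klf4 against Sox2 from -0.2952 to 0.0278 and CDKN2A in Klf4 against Sox2 from -0.0580 to 0.1884. Whether libraries with the same replicate number were prepared together is not known, and correlations over all genes cannot decide it. The differences of replicates 1 and 2 correlated between groups at r from -0.0693 to 0.0418, except GFP with OSK at 0.4116, whose replicates 1 had the most features above 0. With the replicate block, members called against GFP were 4, 8, 5 and 6 for Oct4, Sox2, Klf4 and OSK, and 3 of the 100 pairs lost a call. Only GFP has a replicate 3, so the block takes up that library. For comparisons with GFP it gave the log2 changes found without GFP replicate 3 (CCND3 with Oct4 0.2519 in both). There it is not a separate check. Depth limits CCND2 (14 to 75 reads), CDKN2A (56 to 151) and CDKN2C in GFP most.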
